A study of Mus musculus with 6 samples.

Results

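Ribosomal protein pseudogenes are copies of the messenger RNAs of ribosomal protein genes that were pasted back into the genome, and this account follows the 97 of them that carried counts in the cerebral cortex of FAD5x and Control mice. They were chosen by name and by measured values: the gene symbol is that of a ribosomal protein gene followed by -ps, with a number in all but Rps4x-ps and Rpl39-ps, and the deposited counts of the 6 libraries sum to at least 10. The name alone matched 263 of 47728 genes, of which 102 had no count, 64 had 1 to 9 counts and 97 had 10 or more. The summed count was the only measured value used in the choice. The 5 genes just inside the limit, Rpl30-ps8, Rpl35a-ps7, Rpl7-ps7, Rps19-ps2 and Rps19-ps7, had 10 counts each, and Rps15a-ps3, just outside it, had 9.

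FAD5x mice are a model of Alzheimer's disease in which human transgenes with familial disease mutations are driven in neurons by a Thy1 promoter, and the Control mice were wild-type C57BL/6 (B6). Each group held 3 libraries of total RNA from flash frozen cortex. Age, sex and whether each library is a separate animal are not in the labels, so the p-values reflect the spread between libraries only, which may be technical. The library names of FAD5x replicates 1 and 2 are related (AD_2 and AD_2_B), and whether they came from 1 animal is not given. Their chi-square per degree of freedom was 63.5, with 41.8 and 59.8 in the remaining FAD5x pairs and 19.8 to 31.1 in Control pairs. These values cannot show whether FAD5x replicates 1 and 2 came from 1 animal, and the 2 libraries were treated as separate samples. Values per library are given in the order of replicates 1, 2 and 3.

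A ribosome holds a large and a small subunit, each built from ribosomal RNA and from proteins that are mostly encoded by 1 active gene each. Because these messenger RNAs are abundant, short and present in the germ line, mammalian genomes have collected many intron-less copies of them, called processed pseudogenes. Most have no promoter of their own and are thought to make little or no RNA, but some lie within transcribed genes or keep an open reading frame. A recent copy is nearly identical to its parent gene, and a short sequencing read from the parent then maps equally well to the copy. The sources used here do not say how reads with several equally good positions were counted, nor whether the libraries were stranded. A count listed for a pseudogene below is therefore the count given to that place in the genome, and the transcript it came from is uncertain.

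Total counts were 17972967 to 24137936 in FAD5x libraries and 17363946 to 18188112 in Control libraries. Some libraries stood apart. Control replicate 1 had 3 counts of Xist, the transcript of the inactive X chromosome, and 3124 counts in the Y-linked genes Ddx3y, Kdm5d, Uty and Eif2s3y, while Xist had 10346 to 22631 counts in the other 5 libraries and the Y-linked genes no more than 9. All 5 markers of cortical excitatory neurons were present, with summed levels of 1313 to 2235 CPM in FAD5x libraries and 1309 to 1974 CPM in Control libraries (CPM, counts relative to the scaled library total). The 4 striatal markers summed to 588 CPM in FAD5x replicate 1 and to 38.4 and 63.9 CPM in the other FAD5x libraries, against 51.9 to 94.6 CPM in Control libraries. The 4 markers of the meninges summed to 7.46 to 25.2 CPM in FAD5x libraries and 50.5 to 173 CPM in Control libraries. The 4 oligodendrocyte markers summed to 2890 to 5865 CPM in FAD5x libraries and 2202 to 3219 CPM in Control libraries, and no marker in any of these lists was at 0 in all libraries. Of the markers, 1 meningeal gene was called lower in FAD5x cortex. The part of these differences in the results below was not tested. In bulk tissue, fewer cells of a type and less RNA per cell cannot be told apart.

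The 97 pseudogenes were copies of 37 ribosomal protein genes. Of these copies, 61 were of large subunit genes and 36 of small subunit genes. Rps12 had the most, 8, followed by Rpl35a and Rps19 with 6 each and Rpl9 and Rps2 with 5 each. They lay on 20 chromosomes, 12 of them on X. The GENCODE M21 annotation gave 89 as processed pseudogenes, 5 as transcribed processed pseudogenes and 3, Rpl10-ps3, Rps12-ps3 and Rpl9-ps6, as protein coding. A single exon made up 92 of them, and 42 overlapped the body of another gene.

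Their sequences show how closely these genes resemble their parents. Transcript sequences were taken from GENCODE M21 (mouse build GRCm38), positions are counted from 1 at the A of the parent's start codon, and capitals mark each base that differs from the parent. The first set is shown because Rpl31-ps8, on chromosome 15, was called higher in FAD5x cortex below and has no difference from Rpl31, on chromosome 1. Both are given for coding positions 1 to 100, and the copy was identical over the whole coding sequence.
Rpl31: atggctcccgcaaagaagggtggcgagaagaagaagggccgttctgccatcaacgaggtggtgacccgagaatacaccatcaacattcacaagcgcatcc
Rpl31-ps8: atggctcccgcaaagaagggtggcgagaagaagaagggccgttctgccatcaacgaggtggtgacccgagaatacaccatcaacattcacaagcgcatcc

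The second set is shown because the Rps2 copies held the most counts and differed widely between libraries. Rps2 lies on chromosome 17, Rps2-ps13 on X and Rps2-ps6 on chromosome 14. Positions 194 to 310 of the coding sequence read as follows.
Rps2: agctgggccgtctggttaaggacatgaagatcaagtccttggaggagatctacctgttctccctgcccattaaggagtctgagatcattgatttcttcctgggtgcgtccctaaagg
Rps2-ps13: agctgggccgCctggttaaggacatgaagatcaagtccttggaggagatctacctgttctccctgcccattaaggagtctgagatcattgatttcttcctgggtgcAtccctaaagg
Rps2-ps6: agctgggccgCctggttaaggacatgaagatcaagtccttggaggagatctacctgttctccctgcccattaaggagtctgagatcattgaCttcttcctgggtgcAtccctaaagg
Positions 434 to 463 carry the changes C444T and C453A of Rps2-ps13, which Rps2-ps6 does not have.
Rps2: aggaggttgccactgccatccgaggggcca
Rps2-ps13: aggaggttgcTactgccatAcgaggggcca
Rps2-ps6: aggaggttgccactgccatccgaggggcca
Over the whole coding sequence Rps2-ps13 had 7 substitutions, namely T60A, A84G, T204C, G300A, C444T, C453A and T756C. Rps2-ps6 also had 7 substitutions, 4 of them shared with Rps2-ps13 (T60A, T204C, G300A and T756C), and a gap of 24 bases. Rps2-ps10 had 5 substitutions, and all 5 were also in Rps2-ps13. Reads that cover such a base can tell a copy from Rps2 but not always from another copy.

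The third set is shown because 4 copies of Rpl35a, whose parent lies on chromosome 16, share a single difference from it, G156A, and have identical transcripts of 333 bases on 4 chromosomes (1, 17, 2 and 5). No base in these transcripts separates them from each other. Rpl35a-ps7 on chromosome 6, at the limit of 10 counts, is given for contrast, all over positions 116 to 176.
Rpl35a: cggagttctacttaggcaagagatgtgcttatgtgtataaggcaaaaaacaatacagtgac
Rpl35a-ps2: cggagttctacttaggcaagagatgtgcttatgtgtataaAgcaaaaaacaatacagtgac
Rpl35a-ps3: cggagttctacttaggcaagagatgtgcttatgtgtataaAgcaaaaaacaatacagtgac
Rpl35a-ps4: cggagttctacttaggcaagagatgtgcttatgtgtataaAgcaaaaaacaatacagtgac
Rpl35a-ps6: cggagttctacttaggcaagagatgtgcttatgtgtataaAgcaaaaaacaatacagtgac
Rpl35a-ps7: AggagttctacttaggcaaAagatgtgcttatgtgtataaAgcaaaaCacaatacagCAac

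The fourth set contrasts a copy of Rps12 (chromosome 10) that matches it in full, Rps12-ps3 on chromosome 19, with copies on X that do not, over positions 1 to 100. Rps12-ps13, Rps12-ps14 and Rps12-ps15 have identical transcripts, so only the first is printed.
Rps12: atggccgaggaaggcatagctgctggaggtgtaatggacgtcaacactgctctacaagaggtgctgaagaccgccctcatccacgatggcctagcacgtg
Rps12-ps3: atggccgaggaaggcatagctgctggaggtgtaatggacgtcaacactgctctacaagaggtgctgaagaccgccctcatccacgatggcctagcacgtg
Rps12-ps13: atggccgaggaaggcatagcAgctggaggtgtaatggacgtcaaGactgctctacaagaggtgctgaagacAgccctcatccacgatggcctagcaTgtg
Rps12-ps17: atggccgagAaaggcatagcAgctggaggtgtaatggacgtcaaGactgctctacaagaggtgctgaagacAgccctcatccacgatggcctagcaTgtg

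Across the 97 pseudogenes the median identity to the parent's coding sequence was 98.93%, and the lowest was 85.71%. The coding sequence matched the parent's in full in 12 of them, and 62 kept the parent's reading frame without interruption. Over the aligned part, 47 were at least 99% identical. These 47 include Rpl13-ps1, whose value of 100% rests on an alignment over only 1.57% of the coding sequence. BLAST gave that copy 96.22% identity over 555 bases. In 25 of the 97, no window of 50 bases was unique, meaning that every such window also occurred, on either strand, in a transcript of another gene. At a window of 100 bases this still held for 23. The median share of unique 50-base windows was 15.8% in the 97 pseudogenes, against 58.7% in the 64 with 1 to 9 counts and 84.8% in the 102 with no count. Over all 263 genes of this name pattern, the summed count and the share of unique windows had a Spearman rho of -0.54. This is a description across genes that share parents and read counts, and it carries no test.

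**Figure D1:**
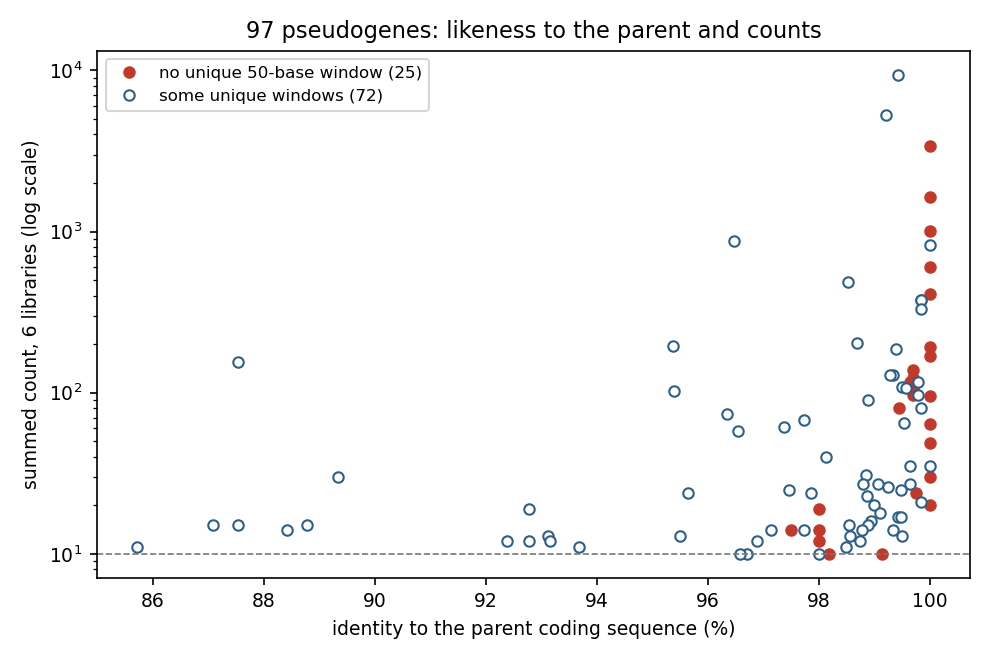
Summed count over the 6 libraries (log scale) against identity to the parent's coding sequence in percent, with 1 point for each of the 97 pseudogenes. Filled points are the 25 with no unique 50-base window, open points the other 72, and the dashed line marks the limit of 10 counts. The highest counts lie near 100% identity, apart from a few such as Rps2-ps6 at 96.5%. Rpl13-ps1 is plotted at 100% from an alignment over only 1.57% of the coding sequence.

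The comparison of FAD5x with Control cortex used edgeR's quasi-likelihood test on the whole table, and a gene was called at a Benjamini-Hochberg adjusted p below 0.05 over the 17074 genes tested. In all, 37 of the 97 pseudogenes passed the filter on low counts, and the other 60 had summed counts of 10 to 80. A pseudogene that passes only because it is high in 1 group must differ between groups, so the counts over these 37 describe them and no more. Of the 37, 1 was called higher in FAD5x cortex, where 1.76% of all tested genes were called higher, and 0 were called lower, where 1.39% of all genes were. At an unadjusted p below 0.05 by edgeR, 15 of the 37 were higher and 0 lower, where 1910 of the 17074 tested genes were higher and 1725 lower. DESeq2 called 5 higher (4.47% of all genes) and 0 lower (4.23% of all genes), namely Rpl31-ps8, Rpl35a-ps6, Rps2-ps10, Rps2-ps13 and Rps2-ps6. With limma-voom 1 was called higher, again Rpl31-ps8 (1.33% of all genes), and 0 lower (1.24% of all genes).

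The fold changes of the 37 tested pseudogenes lay mostly above 0, as did those of their parents. Of the 37, 35 had a log2 fold change above 0, where 51.5% of all tested genes did. Their median was 0.75, against 0.02 over all tested genes and 0.67 over the 37 parent genes. All 3 FAD5x libraries were above all 3 Control libraries for 17 of the 37 pseudogenes (45.9%), where this held for 14.1% of all tested genes. The opposite order held for 0 of the 37 and for 13.2% of all tested genes. In the fit with no filter on low counts, which holds all 97, 74 had a log2 fold change above 0. Their median was 0.67, against 0.02 over all genes in that fit, where the share above 0 was not taken. By library, the median log2 difference of the 37 from the Control mean was 0.49, 0.60 and 0.78 in the FAD5x libraries, and -0.12, 0.16 and -0.08 in the Control libraries. Each FAD5x library thus had a median above that of each Control library. The 22 tested copies of large subunit genes had a median of 0.75 and the 15 of small subunit genes 0.62. The 14 tested pseudogenes with no unique 50-base window had a median of 0.88, against 0.66 for the other 23, and the difference was not tested. The 14 include the 4 Rpl35a copies with identical transcripts, which are not separate observations and whose parent had a log2 fold change of 1.08.

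Rpl31-ps8, a full-length copy of the gene for the large subunit protein RPL31, was the only one called by edgeR. It had 292, 194 and 229 counts (12.04, 9.40 and 11.96 CPM) in FAD5x libraries and 82, 109 and 105 counts (4.51, 6.12 and 5.87 CPM) in Control libraries. All FAD5x libraries lay above all Control libraries. Its log2 fold change was 1.02 ± 0.21 (SE, 3 libraries per group), with an adjusted p of 0.0395 by edgeR's quasi-likelihood test. Rpl31 itself had 3958, 3227 and 3380 counts in FAD5x libraries and 1591, 1901 and 1535 counts in Control libraries. It rose in the same fit, with a log2 fold change of 0.82 ± 0.14 and an adjusted p of 0.0207 by edgeR. No base of the coding sequence separates the copy from the parent, and counts of Rpl31-ps8 are uncertain for that reason. Across the alternatives its adjusted p ranged from 0.00116 to 0.159 and its log2 fold change from 0.89 to 1.13, higher in FAD5x cortex under each of them. It was no longer called without FAD5x replicate 1 (adjusted p = 0.1001) or FAD5x replicate 3 (0.0728), or without Control replicate 1 (0.159), 2 (0.114) or 3 (0.109), with a replicate block (0.148), or when scaled by library totals only (0.0604), all by edgeR.

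Of the other copies of large subunit genes, those of Rpl15 held the most counts outside the Rps2 family. RPL15 is a protein of the large subunit core, and Rpl15-ps3 on chromosome 9 matches its coding sequence in full. Rpl15-ps3 had 28.1, 29.7 and 33.6 CPM in FAD5x libraries and 28.8, 29.2 and 22.3 CPM in Control libraries. The groups overlapped, and the log2 fold change was 0.19 ± 0.15 (adjusted p = 0.521, edgeR). Of the counts of Rpl15 and its 3 named copies, the copies took 15.9%, 15.6% and 16.0% in FAD5x libraries. In Control libraries they took 18.2%, 18.0% and 16.0%. Rpl15-ps2, another of these, had 1.65, 2.18 and 1.57 CPM in FAD5x libraries and 1.82, 1.35 and 1.73 CPM in Control libraries (log2 0.14 ± 0.33). Rpl15 was not called either (log2 0.35 ± 0.13, adjusted p = 0.162, edgeR).

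RPL10 joins the large subunit late in its assembly, and 3 copies of its gene carried counts. Rpl10-ps3, on chromosome 9, had 7.54, 6.83 and 11.1 CPM in FAD5x libraries and 4.46, 6.07 and 5.59 CPM in Control libraries. Rpl10-ps1, on chromosome 2, had 3.75, 4.31 and 4.75 CPM in FAD5x libraries and 2.26, 2.81 and 2.52 CPM in Control libraries. For both, the FAD5x libraries lay above the Control libraries without overlap, but neither passed the threshold (log2 0.66 ± 0.25 and 0.75 ± 0.26, adjusted p = 0.183 and 0.144, edgeR). Rpl10-ps6, on chromosome 19, had 2.76, 2.57 and 4.91 CPM in FAD5x libraries and 2.75, 2.92 and 3.30 CPM in Control libraries, with overlap and a log2 fold change of 0.19 ± 0.32. Rpl10a-ps1, a full copy of the gene for RPL10A, a protein of the stalk next to the exit site, had 5.52, 5.62 and 6.37 CPM in FAD5x libraries and 3.85, 4.10 and 4.81 CPM in Control libraries (log2 0.46 ± 0.22, adjusted p = 0.276, edgeR).

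**Figure D2:**
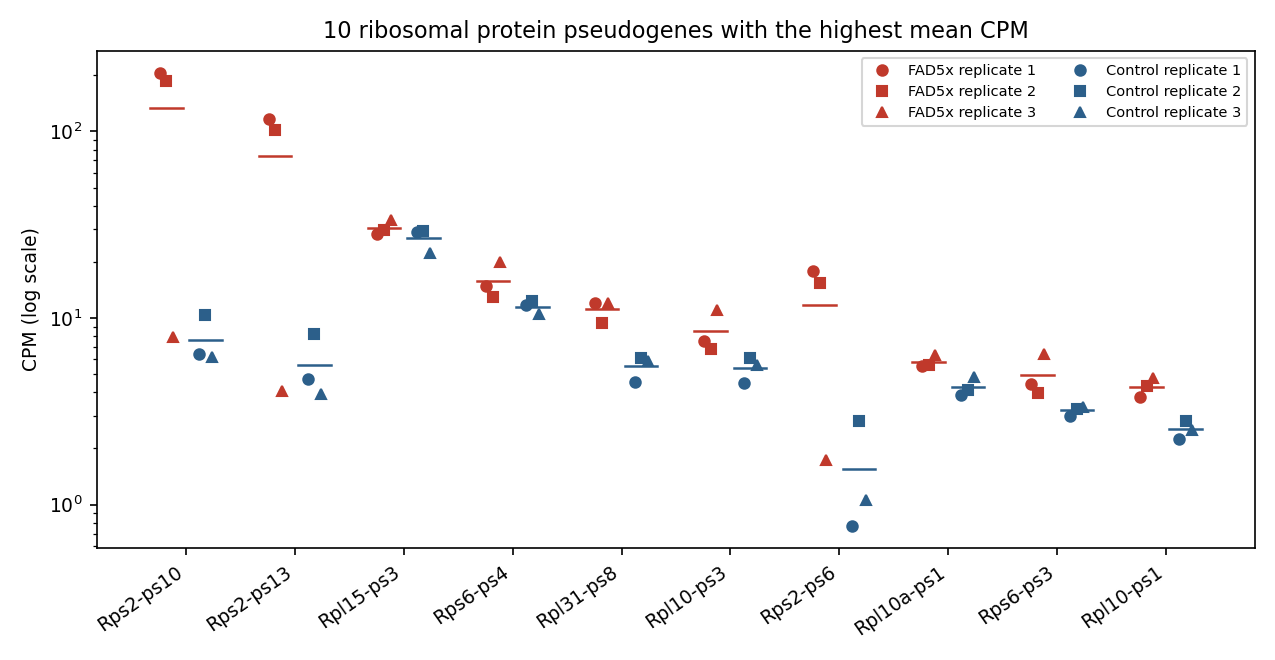
CPM (log scale) of the 10 pseudogenes with the highest mean CPM in each FAD5x and Control library, with symbols for replicates 1 to 3 and a short line at each group's mean. Rps2-ps10, Rps2-ps13 and Rps2-ps6 have FAD5x replicate 3 beside the Control libraries, far below FAD5x replicates 1 and 2, while Rpl31-ps8 has all FAD5x libraries above all Control libraries.

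The 4 identical Rpl35a copies had higher summed counts in FAD5x cortex, as did their parent, the gene for a large subunit protein whose human counterpart is mutated in some cases of Diamond-Blackfan anaemia. Summed, Rpl35a-ps2, -ps3, -ps4 and -ps6 had 139, 89 and 121 counts in FAD5x libraries and 22, 36 and 56 counts in Control libraries. All 3 FAD5x sums exceeded all 3 Control sums. Counts were spread over all 4 places in each library, for instance 37, 41, 31 and 30 counts for -ps2, -ps3, -ps4 and -ps6 in FAD5x replicate 1. Taken singly, Rpl35a-ps6 had a log2 fold change of 1.74 ± 0.45 and an adjusted p of 0.0782 by edgeR, and DESeq2 called it with an adjusted p of 0.0461. Its 1.24, 1.16 and 1.57 CPM in FAD5x libraries stood against 0.275, 0.337 and 0.559 CPM in Control libraries. Rpl35a rose with a log2 fold change of 1.08 ± 0.13 (adjusted p = 0.00575, edgeR). Of the counts of Rpl35a and its 6 named copies, the copies took 5.75%, 4.65% and 5.63% in FAD5x libraries. In Control libraries they took 2.71%, 4.12% and 7.22%, and the groups overlapped.

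Rpl9-ps6, annotated as protein coding, is a copy of Rpl9 on chromosome 19 and differs from it by 1 base, G266A. It had 20, 22 and 22 counts in FAD5x libraries and 5, 4 and 7 counts in Control libraries. The groups did not overlap, and its log2 fold change of 1.74 ± 0.47 had an adjusted p of 0.0851 by edgeR. The stretch around the base that differs, positions 246 to 286, is printed because within the coding sequence only reads over that base tell the copy from Rpl9.
Rpl9: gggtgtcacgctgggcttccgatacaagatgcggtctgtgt
Rpl9-ps6: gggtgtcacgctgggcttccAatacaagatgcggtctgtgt

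Among the small subunit copies, those of Rps2 were set apart by FAD5x replicates 1 and 2. RPS2 lines the entrance through which messenger RNA passes into the small subunit. Rps2-ps10 had 4966, 3865 and 152 counts in FAD5x libraries and 117, 185 and 110 counts in Control libraries. Rps2-ps13 had 2820, 2100 and 78 counts in FAD5x libraries and 86, 146 and 70 counts in Control libraries. Rps2-ps6 had 436, 319 and 33 counts in FAD5x libraries and 14, 50 and 19 counts in Control libraries. For all 3 copies FAD5x replicates 1 and 2 were high, and FAD5x replicate 3 lay within the range of the Control libraries in CPM (7.94, 4.08 and 1.72 CPM for Rps2-ps10, Rps2-ps13 and Rps2-ps6). The log2 fold changes were 4.12 ± 1.16, 3.72 ± 1.17 and 2.92 ± 0.87, and none was called by edgeR (adjusted p = 0.130, 0.155 and 0.126 for Rps2-ps10, Rps2-ps13 and Rps2-ps6). Without FAD5x replicate 3 all 3 copies were called, with adjusted p-values of 0.000148, 0.000600 and 0.0110 by edgeR. Only FAD5x replicates 1 and 2 remain in that fit, and they may come from 1 animal, so these p-values may reflect technical spread only. Without FAD5x replicates 1 and 2, with FAD5x replicate 3 as the only FAD5x library, the log2 fold changes were 0.05, -0.46 and 0.15. DESeq2 called all 3 on the full set of libraries, with adjusted p-values of 0.00523, 0.0190 and 0.0457, where again only FAD5x replicates 1 and 2 were high.

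Rps2 itself did not follow its copies. It had 3943, 3221 and 5172 counts (163, 156 and 270.2 CPM) in FAD5x libraries and 3600, 5531 and 4065 counts (198, 311 and 227 CPM) in Control libraries. FAD5x replicates 1 and 2 were the lowest of the 6 libraries in CPM, the groups overlapped, and the log2 fold change was -0.32 ± 0.25 (adjusted p = 0.515, edgeR). The 5 named copies took 67.6%, 66.2% and 5.26% of the counts of Rps2 and its named copies in FAD5x libraries, and 6.13%, 6.63% and 4.80% in Control libraries. Rps2 and its named copies together had 502, 461 and 285 CPM in FAD5x libraries and 211, 333 and 239 CPM in Control libraries. Counted as 1 row, the family differed by 0.67 ± 0.25 on the log2 scale (adjusted p = 0.175, edgeR).

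A further 17 copies of Rps2 have no name of the -ps form, at 95% identity or more over at least 50% of the coding sequence. Together they had 133, 125 and 18.0 CPM in FAD5x libraries and 17.5, 28.4 and 14.2 CPM in Control libraries, with the same pair of FAD5x libraries high. With these added to the family row, the log2 fold change was 0.86 ± 0.30 (adjusted p = 0.155, edgeR). The other named copies, Rps2-ps11 and Rps2-ps9, did not reach the filter. Rps2-ps11, which has 24 substitutions, had 10, 12 and 23 counts in FAD5x libraries and 17, 7 and 5 counts in Control libraries. At these low counts it did not show the split. Rps2-ps6, with 7 substitutions and a gap of 24 bases, did show it at a similar identity (96.47%, against 96.35% for Rps2-ps11). Whether sequence difference from Rps2 plays a part was not tested. The striatal markers summed to 588, 63.9 and 38.4 CPM in FAD5x libraries, and their part in the counts of the Rps2 copies was not tested.

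**Figure D3:**
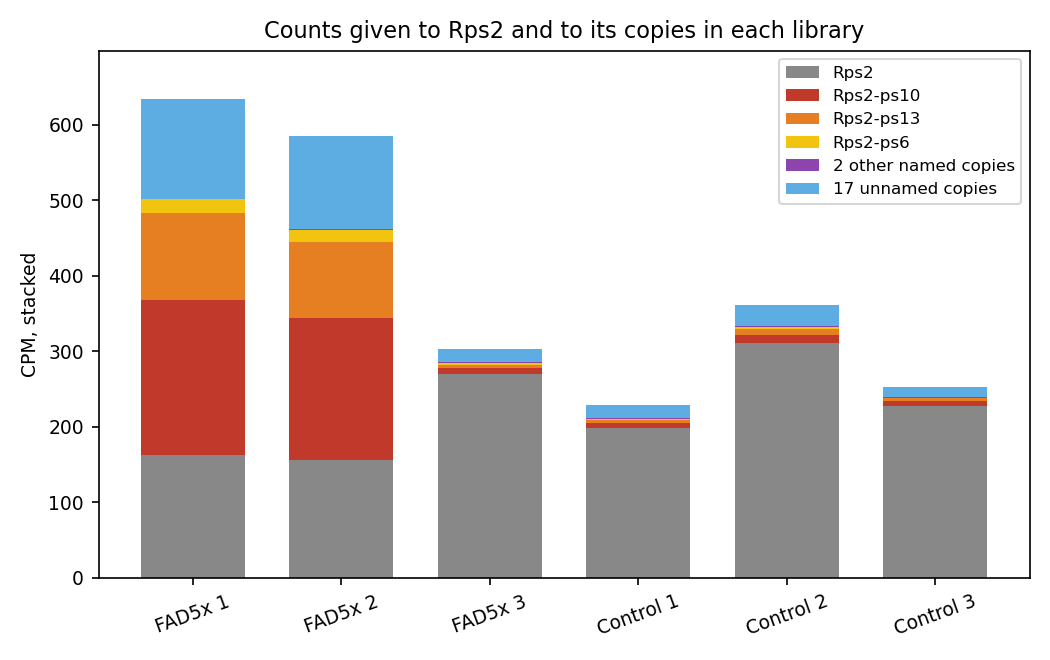
Stacked CPM of Rps2, its named copies and its 17 unnamed copies in FAD5x replicates 1 to 3 and Control replicates 1 to 3. Copies make up most of the bar in FAD5x replicates 1 and 2 and a small part in the other 4 libraries, and the grey part for Rps2 is lowest in those same 2 libraries.

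Because of these copies, the sum over all 97 pseudogenes gave a different picture from its remainder. The sum was 462, 428 and 173 CPM in FAD5x libraries and 104, 125 and 97.7 CPM in Control libraries. The Rps2 copies made up 73.5%, 71.3% and 8.64% of the summed counts in FAD5x libraries and 12.4%, 17.6% and 11.7% in Control libraries. Without them, the other 92 pseudogenes summed to 122, 123 and 158 CPM in FAD5x libraries and 91.4, 103 and 86.2 CPM in Control libraries. Each FAD5x library lay above each Control library, and the ratio of the means was 1.44. The 36 parents other than Rps2 had a ratio of means of 1.52 by the same sums. Of the counts of these 92 pseudogenes and their 36 parents, the pseudogenes took 2.09%, 2.15% and 2.33% in FAD5x libraries. In Control libraries they took 2.37%, 2.30% and 2.32%. The range in FAD5x libraries overlapped that in Control libraries.

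Rps6 encodes a small subunit protein that is phosphorylated downstream of mTOR signalling. Its copy Rps6-ps4 on chromosome 2 is identical over the coding sequence, while Rps6-ps3 on chromosome 9 has 11 differences, 4 of them in positions 54 to 129 printed here to show how far a copy with its own bases departs.
Rps6: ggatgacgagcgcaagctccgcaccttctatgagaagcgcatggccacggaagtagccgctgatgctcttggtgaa
Rps6-ps4: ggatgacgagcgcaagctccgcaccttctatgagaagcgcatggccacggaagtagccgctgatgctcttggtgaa
Rps6-ps3: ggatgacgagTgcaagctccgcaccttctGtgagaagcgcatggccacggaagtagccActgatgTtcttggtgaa
Rps6-ps4 had 14.8, 13.0 and 19.9 CPM in FAD5x libraries and 11.8, 12.3 and 10.5 CPM in Control libraries. Rps6-ps3 had 4.41, 3.97 and 6.43 CPM in FAD5x libraries and 2.97, 3.26 and 3.35 CPM in Control libraries. FAD5x libraries lay above Control libraries for both, with log2 fold changes of 0.46 ± 0.19 and 0.62 ± 0.27 and adjusted p-values of 0.215 and 0.229 by edgeR. Rps6 itself rose (log2 0.67 ± 0.13, adjusted p = 0.0369, edgeR).

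The remaining tested small subunit copies had lower counts, and none was called by edgeR. In Rps16-ps2, Rps12-ps3, Rps19-ps3 and Rps27a-ps2 all FAD5x libraries lay above all Control libraries in CPM. Rps16-ps2, identical to Rps16 over the coding sequence, had 43, 26 and 74 counts in FAD5x libraries and 21, 17 and 11 counts in Control libraries (log2 1.33 ± 0.50, adjusted p = 0.182, edgeR). Rps12-ps3, the full copy printed above, had 55, 36 and 28 counts in FAD5x libraries and 13, 21 and 15 counts in Control libraries (log2 1.00 ± 0.38, adjusted p = 0.183, edgeR). Rps19-ps3 and Rps27a-ps2 had log2 fold changes of 1.01 ± 0.50 and 0.92 ± 0.46. The copies with a log2 fold change below 0 were Rps12-ps9 and Rps13-ps4. Rps12-ps9 had 21, 15 and 17 counts in FAD5x libraries and 16, 26 and 14 counts in Control libraries, and its log2 fold change of -0.33 ± 0.42 was the lowest of the 37. Rps13-ps4 had 21, 29 and 15 counts in FAD5x libraries and 15, 26 and 22 counts in Control libraries (log2 -0.20 ± 0.42). The groups overlapped for both of these. Their parents Rps12 and Rps13 had log2 fold changes of 0.67 ± 0.19 and 0.51 ± 0.16 (adjusted p = 0.0958 and 0.121, edgeR), and neither was called. Rps16-ps2, Rps12-ps3, Rps19-ps3 and Rps27a-ps2 and the following copies were picked after their values were seen. The 4 Rps13 copies summed to 62, 101 and 64 counts in FAD5x libraries and 45, 79 and 41 counts in Control libraries, highest in replicate 2 of either group. Rps12-ps13, -ps14, -ps15 and -ps17, the X-linked copies shown above, summed to 0, 24 and 24 counts in FAD5x libraries and 3, 8 and 0 counts in Control libraries. No count of them was listed in 1 library of each group, FAD5x replicate 1 and Control replicate 3. Rps19-ps6, a copy of the gene most often mutated in human Diamond-Blackfan anaemia, had 4, 6 and 13 counts in FAD5x libraries and none in Control libraries. It did not pass the filter, and edgeR called it in the fit with no filter.

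**Figure D4:**
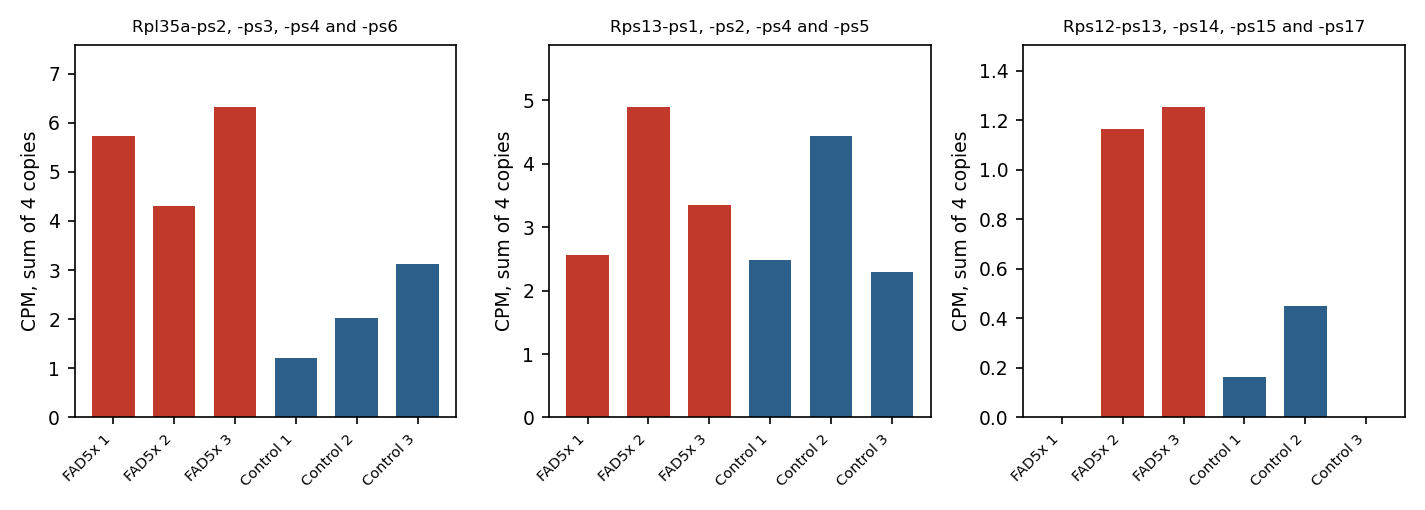
CPM summed over 4 copies of Rpl35a, of Rps13 and of Rps12 on X in FAD5x replicates 1 to 3 (left bars) and Control replicates 1 to 3 (right bars), each panel on its own axis from 0. The Rpl35a sums are higher in all FAD5x libraries, the Rps13 sums are highest in replicate 2 of each group, and the Rps12 sums are 0 in FAD5x replicate 1 and Control replicate 3.

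The parents and the other genes of the cytosolic ribosome were read from the same fit. Of the 37 parents, 17 were called higher and 1 lower in FAD5x cortex, where 1.76% of all tested genes were called higher and 1.39% lower. Over the full lists, 22 of 48 large subunit genes and 13 of 32 small subunit genes were called higher, 1 large subunit gene was called lower and 0 small subunit genes were called lower. The number of parents called higher was 2 without FAD5x replicate 1 (0.575% of all genes called higher) and 28 without FAD5x replicate 2 (3.41%). It was 9 without FAD5x replicate 3 (1.62%) and 1 without each single Control library (0.221% to 0.406%). The share over all genes thus moved along with the number of parents. With each parent and its named copies added into 1 row, 17 families were called higher (1.77% of all genes) and 1 lower (1.40%). With unnamed copies added too, 18 were called higher (1.76%) and 0 lower (1.39%).

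The fold changes of the copies lay on both sides of those of their parents. The log2 fold change of the copy exceeded that of its parent in 21 of the 37 tested pseudogenes and was below it in 16, with a median difference of 0.11. The Rps2 copies and Rpl29-ps2 lay farthest from their parents. Rpl29 encodes a small, basic large subunit protein, and it had 77, 107 and 81 counts in FAD5x libraries and 2333, 3262 and 2390 counts in Control libraries (log2 -5.15 ± 0.24, adjusted p = 4.42e-05, edgeR). Rpl29-ps2, which has 11 differences from it, had 14, 18 and 14 counts in FAD5x libraries and 7, 12 and 3 counts in Control libraries (log2 0.82 ± 0.56, adjusted p = 0.451, edgeR). Of the counts of Rpl29 and its 2 named copies alone, the copies took 16.3%, 18.3% and 17.3% in FAD5x libraries. In Control libraries they took 0.299%, 0.367% and 0.167%, where the counts of Rpl29 itself were far higher. Unnamed copies are left out of these shares. Gm13841, the unnamed copy with the most counts, had 4001, 3788 and 3865 counts in FAD5x libraries and 22, 28 and 14 in Control libraries. With the unnamed copies added, the family was called higher (log2 1.36 ± 0.18, adjusted p = 0.0110, edgeR).

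**Figure D5:**
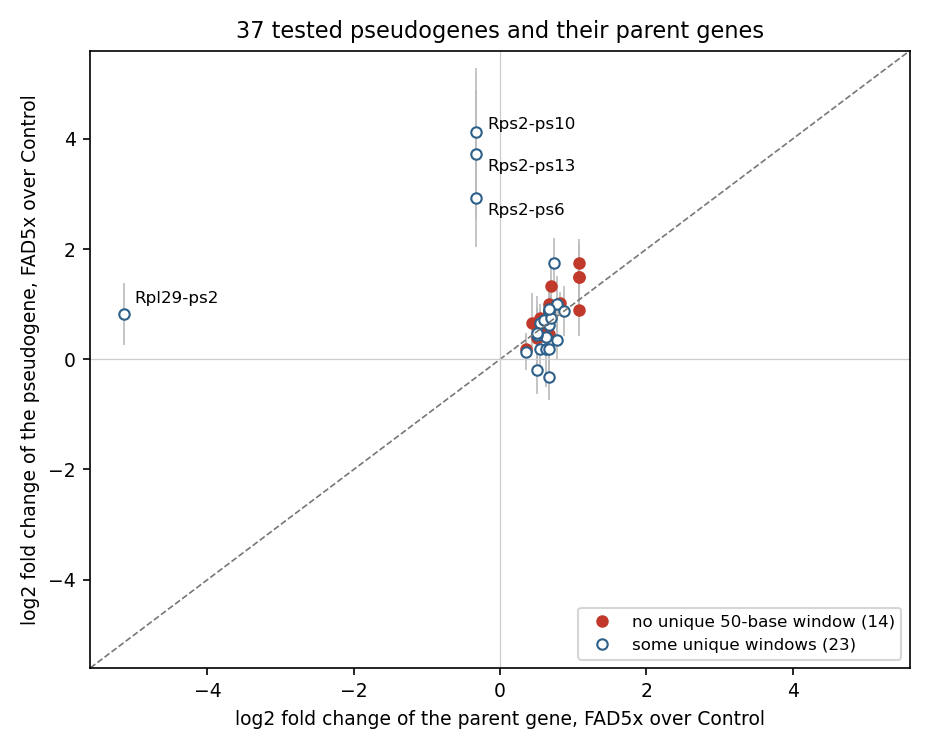
Log2 fold change (FAD5x over Control) of the 37 tested pseudogenes, with standard error bars, against that of the parent gene; the dashed line marks equal values. Filled points are the 14 with no unique 50-base window and open points the other 23; most lie near the line between 0 and 2, and the 3 Rps2 copies and Rpl29-ps2 lie above it.

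Genes that overlap these pseudogenes were read from the same fit. A tested gene surrounded or overlapped 13 of the tested pseudogenes, and 0 of these 13 host genes were called by edgeR. Their median log2 fold change was -0.08, with a range of -0.75 to 0.72. Each of these 13 pseudogenes lay in an intron of its host, on the same or the opposite strand. The strand of the reads is not known. Reads of a pseudogene therefore cannot be told apart from reads of host RNA that still holds that intron, on either strand.

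Other genes with a symbol ending in -ps are pseudogenes of many kinds. Of the 79 tested, 5 were called higher and 1 lower in FAD5x cortex, where 1.76% of all tested genes were called higher and 1.39% lower. The median log2 fold change of the 79 was 0.17. Copies of Hmgb1, which encodes an abundant chromatin protein, made up 4 of the 6. Hmgb1-ps7 had 202, 224 and 200 counts in FAD5x libraries and 6, 2 and 0 counts in Control libraries. Its log2 fold change was 6.00 ± 0.58 (adjusted p = 0.00187, edgeR). Hmgb1-ps2 and Hmgb1-ps3 rose as well (log2 4.31 ± 0.41 and 5.53 ± 0.63), and Hmgb1-ps6 fell (log2 -2.25 ± 0.37, adjusted p = 0.0207, edgeR).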

How the data were processed

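Cortex RNA of 3 FAD5x and 3 Control samples was sequenced, with 1 library per sample. The authors deposited raw counts per gene for the 6 libraries, keyed by Ensembl identifier. The submitters' processing notes name build GRCm39 and, among the tools, STAR 2.7.11b, cutadapt, limma, edgeR 3.38.4 and featureCounts. Their order, their parameters, strandedness and the handling of multi-mapping reads are not given there. Of 47729 lines, 1 was left out because of a non-numeric cell. Symbols came from GENCODE M21, matched by identifier (47223 matched, 505 not). That annotation is on GRCm38, so chromosomes but no coordinates are given.

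The comparison was a two-sided quasi-likelihood F-test in edgeR 4.0.16 (R 4.3.3), after filterByExpr and TMM scaling, with genotype as the only term. The standard error is the log2 fold change divided by the square root of the F statistic. The biological coefficient of variation was 23.3%. The scripts were tested on simulated data. Alternatives were DESeq2 1.42.0, limma-voom (limma 3.58.1), other scalings and filters, a replicate block, family sums and libraries left out. Coding sequences were aligned with Biopython 1.88, and other copies were found with BLAST 2.17.0. Named pseudogenes were those called, the 10 with the highest mean CPM, the 5 tested with the largest and the 5 with the lowest fold change, and those at the count limit; other names were added after values were seen. Not every pseudogene that this rule takes is reported here. The members and lists were chosen with earlier results of these data known.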

Additional observations from a re-analysis of the deposited data

How the results depend on the processing

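The number of pseudogenes called higher, 1 by edgeR, was 5 with DESeq2 (4.47% of all genes called higher), 0 with library totals only (1.35%), 2 with no filter on low counts (1.90%), 3 at an adjusted p below 0.1 (3.99%) and 0 to 3 with 1 library left out (0.221% to 3.41%). As families with the parent, 17 were called higher (1.77% of all genes) and 1 lower (1.40%). The median log2 fold change of the tested pseudogenes ranged from 0.58 to 0.89 with 1 library left out. Parents called higher were 29 with DESeq2 (4.47% of all genes) and 1 to 28 with 1 library left out (0.221% to 3.41%). Other named pseudogenes called were 3 to 7 higher (0.221% to 3.41% of all genes) and 0 to 1 lower (0.238% to 2.18%) with 1 library left out. Alternatives chosen after seeing the data gave 18 families higher with unnamed copies added (1.76% of all genes). Another of these alternatives left out FAD5x replicates 1 and 2, so FAD5x replicate 3 was the only FAD5x library. It gave log2 fold changes of -0.46 for Rps2-ps13 and -0.063 for Rpl15-ps2. With 1 library left out, log2 fold changes crossed 0 for Rpl10-ps6 (-0.16 to 0.36) and Rpl15-ps2 (-0.013 to 0.23), with neither called. Over refits of single named pseudogenes, 235 kept direction and call, 4 changed direction, 7 gained a call and 7, all of Rpl31-ps8, lost it. The causes were not tested.

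Deviations of same-numbered libraries had correlations of -0.04, -0.09 and -0.31, against -0.21 to 0.30 in the other pairs. With 3 libraries per group, these values cannot show whether samples were paired. The labels give no pairing, and the numbers are replicate numbers only. With a replicate block on these numbers, 0 pseudogenes and 0 parents were called higher (0.211% of all genes), and 2 other named pseudogenes were called higher and 0 lower. At an unadjusted p below 0.05 in that edgeR fit, 10 pseudogenes were higher. The count over all genes was not taken, so this number cannot be read as particular to the pseudogenes. Low counts limit the 60 pseudogenes that were not tested, and intervals from counts would cover counting error only.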
